A study of Mus musculus with 16 samples.

Results

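The enzymes of the pentose phosphate pathway were followed in quadriceps muscle of aged mice, from the oxidative steps to the sugar exchange steps. The list held 7 genes, of which 6 are described, Pgls, Pgd, Rpia, Rpe, Tkt and Taldo1. Every probe carrying 1 of these symbols was taken, which gave 7 of the 25697 probes on the array. There were 5 genes of the 6 with a probe, among 16591 genes with a symbol on the array. The platform annotation named 6 of the probes, those of Pgls, Rpia and Taldo1 with 1 probe each and of Tkt with 3. The probe of Pgd (ILMN_2712066) had no platform symbol and was named through probe lists that accompany the study. Those lists hold probes that differed between diets, so the diet differences of Pgd are given as descriptions with no test. No probe was matched to Rpe, which is not analysed here. The pathway itself was chosen by the measured difference of Pgd between tomatidine and control mice, so its tomatidine values are given as descriptions too.

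All 16 mice were male C57BL/6. They started their diets at an age of 22 months and gave their muscles at 24 months. The control group of 5 mice ate standard chow for 2 months. Chow for the ursolic acid group of 6 mice contained 0.27% (w/w) of that compound, and chow for the tomatidine group of 5 mice contained 0.05% (w/w) tomatidine, for the same 2 months. Both compounds are made by plants, ursolic acid being a pentacyclic triterpene and tomatidine a steroidal alkaloid. The doses differed, so the compounds are set side by side and not compared at a matched dose. Each mouse gave RNA from its quadriceps femoris for 1 array read in 1 colour, and all values are log2 signals. Array medians lay between 8.02 and 8.03, the lowest signal of an array lay between 7.87 and 7.90, and 76.8% of probes had a mean under 8.5, which is called dim here. The muscle genes fitted the label, since the mean of 10 skeletal muscle markers was 14.40 with control diet, 14.37 with ursolic acid and 14.39 with tomatidine and none of them was dim. Tomatidine mice 4 and 3 stood farthest from the other mice along component 1 of a principal component analysis (25.7% of variance), and values without them are given where they matter.

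The pentose phosphate pathway branches from glycolysis at glucose 6-phosphate. Its oxidative part makes NADPH, the reducing agent for lipid synthesis and for recycling glutathione and thioredoxin, and its non-oxidative part interconverts sugar phosphates, supplying ribose 5-phosphate for nucleotides or returning carbon to glycolysis. Resting adult skeletal muscle is known for low activity of the oxidative enzymes, which rises when muscle regenerates, and macrophages and adipocytes are known to use the pathway strongly. Several of its genes are known targets of the transcription factor NRF2 in other cells.

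The promoters of 3 of the enzymes are shown as examples, and no relation of their letters to the diet differences was tested. Each is the 250 bases that end just before the start site, read 5′ to 3′ on the strand of the gene, from RefSeq on GRCm38.p6, with the matches to the motifs described next in capitals. The Pgd window is the first of the 2 that RefSeq gives for this gene, chr4:149166706-149166955 on the minus strand, Tkt is chr14:30548881-30549130 on the plus strand, and Taldo1 is chr7:141391910-141392159 on the plus strand.
Pgd: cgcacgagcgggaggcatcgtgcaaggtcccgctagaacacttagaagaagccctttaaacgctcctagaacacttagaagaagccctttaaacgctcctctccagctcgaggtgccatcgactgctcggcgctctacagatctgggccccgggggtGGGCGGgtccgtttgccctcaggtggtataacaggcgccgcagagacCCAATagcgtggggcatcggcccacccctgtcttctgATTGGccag
Tkt: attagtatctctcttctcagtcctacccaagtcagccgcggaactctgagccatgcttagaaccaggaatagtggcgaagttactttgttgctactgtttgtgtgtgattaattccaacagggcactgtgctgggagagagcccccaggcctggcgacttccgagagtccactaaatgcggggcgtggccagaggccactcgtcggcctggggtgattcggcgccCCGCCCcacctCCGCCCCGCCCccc
Taldo1: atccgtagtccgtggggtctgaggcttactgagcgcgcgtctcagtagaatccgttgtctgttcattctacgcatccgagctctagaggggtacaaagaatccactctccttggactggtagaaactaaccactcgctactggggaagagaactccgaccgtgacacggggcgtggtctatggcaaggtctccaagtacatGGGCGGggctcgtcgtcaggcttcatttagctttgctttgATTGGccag
All 6 genes described had a RefSeq window, 7 windows in all, and 6 motifs were searched on both strands in these and in 32817 windows of the same length. The GC box (GGGCGG), to which SP1 binds, was in 6 of the 7 windows and in 32.7% of all windows. Tkt had 3 matches, of which the last 2 overlap by 1 base. The CCAAT box (CCAAT), to which NF-Y binds, was in 2 of the 7 windows and in 33.8% of all windows. Pgd and Taldo1 each carried it on the opposite strand at bases 242 to 246, that is starting at base -9 from the start site, and Pgd had another match at bases 205 to 209. The other 4 motifs were in none of the 7 windows. These were the core of the antioxidant response element recognised by NRF2 (TGACNNNGC, in 10.2% of all windows), the E-box (CACGTG, in 6.02%), the element bound by ATF4 with C/EBP proteins (TGATGNAAT, in 0.817%) and the TATA box (TATAAA, in 12.4%). A match describes letters in this window and was not tested as a binding site.

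In the oxidative part, Pgls encodes 6-phosphogluconolactonase, which hydrolyses 6-phosphogluconolactone. Control mice 1 to 5 were at 9.44, 9.60, 9.64, 9.58 and 9.69 (mean 9.59 ± 0.10, SD, n = 5). The tomatidine mice were at 9.81, 9.78, 9.84, 9.69 and 9.83 (9.79 ± 0.06, SD, n = 5), and 4 of the 5 were above every control mouse. The ursolic acid mice ran from 9.57 through a median of 9.70 to 9.79 (9.69 ± 0.08, SD, n = 6), between the other groups and overlapping both. The difference from control was 0.10 with ursolic acid (SE 0.05, 95% interval 0.0016 to 0.20), which did not pass limma's test at an unadjusted p of 0.0468 and an adjusted p of 0.544. With tomatidine it was 0.20 (SE 0.05, 95% interval 0.09 to 0.30), a 1.15-fold higher signal. Because the array is bulk tissue, fewer cells of a type and less RNA per cell cannot be told apart here or below.

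Pgd encodes 6-phosphogluconate dehydrogenase, an NADPH-making enzyme of the pathway, which releases carbon dioxide and leaves ribulose 5-phosphate. Its signal in control mice 1 to 5 was 9.63, 9.55, 9.57, 9.50 and 9.74 (9.60 ± 0.09, SD, n = 5). In tomatidine mice 1 to 5 it was 9.78, 9.87, 9.98, 10.02 and 10.11 (9.95 ± 0.13, SD, n = 5), and all 5 were above the highest control mouse. The ursolic acid mice ran from 9.63 through a median of 9.74 to 9.88 (9.75 ± 0.09, SD, n = 6), with 3 of 6 above every control mouse and 4 of 6 below every tomatidine mouse. The tomatidine difference, the value for which the pathway was chosen, was 0.35 (SE 0.06, 95% interval 0.22 to 0.48), or 1.28-fold (95% interval 1.17 to 1.40). Without tomatidine mice 3 and 4 it was 0.32. With ursolic acid the difference from control was 0.15 (SE 0.06, 95% interval 0.03 to 0.28).

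**Figure D1:**
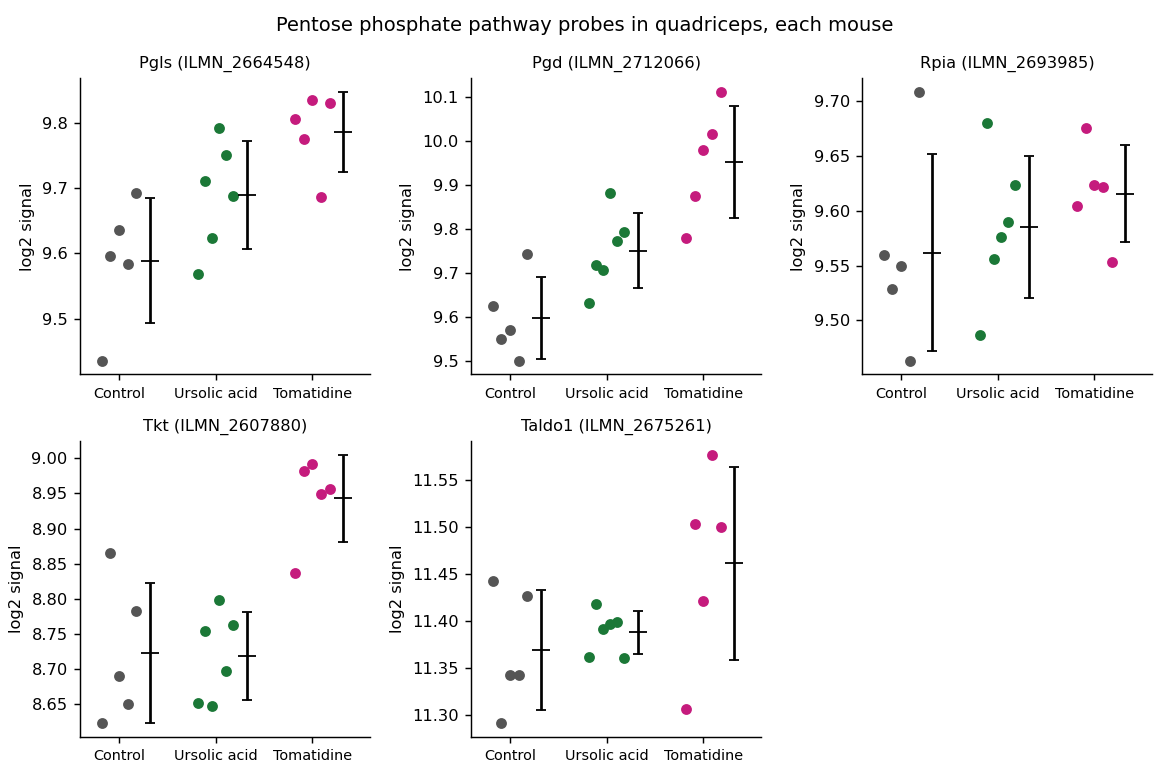
Log2 signal of each mouse for the probes of the pathway's enzymes, by diet. Points run from left to right by mouse number and bars give the mean and SD of 5 control, 6 ursolic acid and 5 tomatidine mice. All 5 tomatidine mice lie above the control mice for Pgd, and the Tkt points of the ursolic acid mice lie below those of the tomatidine mice.

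In the non-oxidative part, Rpia encodes ribose 5-phosphate isomerase, which makes ribose 5-phosphate from ribulose 5-phosphate. Control mice were at 9.56, 9.53, 9.55, 9.46 and 9.71, tomatidine mice at 9.60, 9.68, 9.62, 9.62 and 9.55, and ursolic acid mice between 9.49 and 9.68 with a median of 9.58. The 3 diets overlapped, and control mouse 5 was the highest of all. The difference from control was 0.02 with ursolic acid (SE 0.04, 95% interval -0.06 to 0.11, limma adjusted p = 0.916) and 0.05 with tomatidine (SE 0.04, 95% interval -0.03 to 0.14).

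Tkt encodes transketolase, a thiamine-dependent enzyme that moves 2-carbon units between sugar phosphates. The brightest of its 3 probes, ILMN_2607880, was at 8.62, 8.86, 8.69, 8.65 and 8.78 in control mice 1 to 5 (8.72 ± 0.10, SD, n = 5). It was at 8.84, 8.98, 8.99, 8.95 and 8.96 in the tomatidine mice (8.94 ± 0.06, SD, n = 5), of which 4 were above every control mouse and mouse 1 fell below control mouse 2. The ursolic acid mice ran from 8.65 through a median of 8.72 to 8.80 (8.72 ± 0.06, SD, n = 6), inside the control range and entirely below the tomatidine mice. The ursolic acid difference was -0.0038 (SE 0.04, 95% interval -0.10 to 0.09, limma adjusted p = 0.991). The tomatidine difference was 0.22 (SE 0.05, 95% interval 0.12 to 0.32), or 1.17-fold, and 0.20 without tomatidine mice 3 and 4. The other Tkt probes lay next to the lowest signals of the arrays, ILMN_2780322 between 7.93 and 7.98 and ILMN_2780323 between 7.92 and 8.01 over the 16 mice. Their tomatidine differences were 0.01 each, so the Tkt difference rests on 1 probe.

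Taldo1 encodes transaldolase, which moves 3-carbon units and with transketolase links the pathway back to glycolysis. It was at 11.44, 11.29, 11.34, 11.34 and 11.43 in control mice 1 to 5 (11.37 ± 0.06, SD, n = 5) and at 11.31, 11.50, 11.42, 11.58 and 11.50 in tomatidine mice 1 to 5 (11.46 ± 0.10, SD, n = 5). In the tomatidine group 3 of 5 mice were above every control mouse, while mouse 1 was lower than 4 of the control mice. The ursolic acid mice lay within 11.36 and 11.42 with a median of 11.39, inside the control range. The difference from control was 0.02 with ursolic acid (SE 0.04, 95% interval -0.06 to 0.10, limma adjusted p = 0.935) and 0.09 with tomatidine (SE 0.04, 95% interval 0.01 to 0.18). Leaving out tomatidine mouse 1 gave 0.13, and leaving out mouse 4 gave 0.06.

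Across the pathway, 7 of 7 tomatidine differences were above 0, against 48.8% of all probes, with a median of 0.09. The 7 probes stand for 5 genes, and 2 are the dim Tkt probes next to the lowest signals, at 0.01 each. At an unadjusted p of 0.025 or less, the threshold called passing here, 3 of the 7 probes were higher with tomatidine (Pgd, Tkt ILMN_2607880 and Pgls), where 2.25% of all probes were higher, and 0 were lower, where 3.12% of all probes were. At an adjusted p of 0.1 or less 1 of them remained, Pgd, where 0.0973% of all probes passed. The groups did not overlap for 1 probe, Pgd, against 0.498% of all probes with every tomatidine mouse above every control mouse. Since Pgd's tomatidine difference was known when the pathway was chosen, nothing is read from these counts. Passing was more frequent among brighter probes, 13% of the 5949 probes with a mean of 8.5 or more for this comparison.

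For ursolic acid limma's test was applied to the 6 probes that the platform annotation names, and 0 of these passed at the unadjusted threshold or at the adjusted one. The control mice also served to choose the pathway, so this count is not free of that choice. Of all probes 5.3% passed, 12.2% of those with a mean of 8.5 or more. At an unadjusted p under 0.05 there was 1 of the 6, Pgls, where 9.02% of all probes were under 0.05, and the methods' t-test also passed 0 at the study's threshold. With the Pgd probe, named from the study's lists, 1 of 7 met the unadjusted threshold, Pgd above control (2.58% of all probes were higher), 0 were lower (2.72% of all probes were), and 0 met the adjusted threshold, which 0.00778% of all probes met. Which probes could be named depended on such differences, so this count is a description. Leaving out any of control mice 1 to 4 or ursolic acid mice 4 to 6, or tomatidine mice 3 and 4 together, left Pgd short of the threshold, with differences of 0.13 to 0.16.

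Between the compounds, transketolase and Pgd were lower with ursolic acid than with tomatidine. Ursolic acid minus tomatidine was -0.22 for Tkt ILMN_2607880 (SE 0.04, 95% interval -0.32 to -0.13) and -0.20 for Pgd (95% interval -0.33 to -0.08). For Pgls it was -0.10 (95% interval -0.20 to 0.0015), for Taldo1 -0.07 (95% interval -0.16 to 0.01) and for Rpia -0.03 (95% interval -0.11 to 0.05), intervals that hold 0. The 2 probes that met the unadjusted threshold were both lower with ursolic acid, where 1.44% of all probes were lower, and the groups did not overlap for Tkt, where every ursolic acid mouse was below every tomatidine mouse for 0.218% of all probes. At the adjusted threshold 0 of the 7 probes passed, against 0.0117% of all probes. This contrast shares the tomatidine mice with the one for which the pathway was chosen, and both compounds share the control mice, so these values are descriptions. Without tomatidine mice 3 and 4 the Tkt difference was -0.21 and that of Pgd -0.17, which no longer met the unadjusted threshold.

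**Figure D2:**
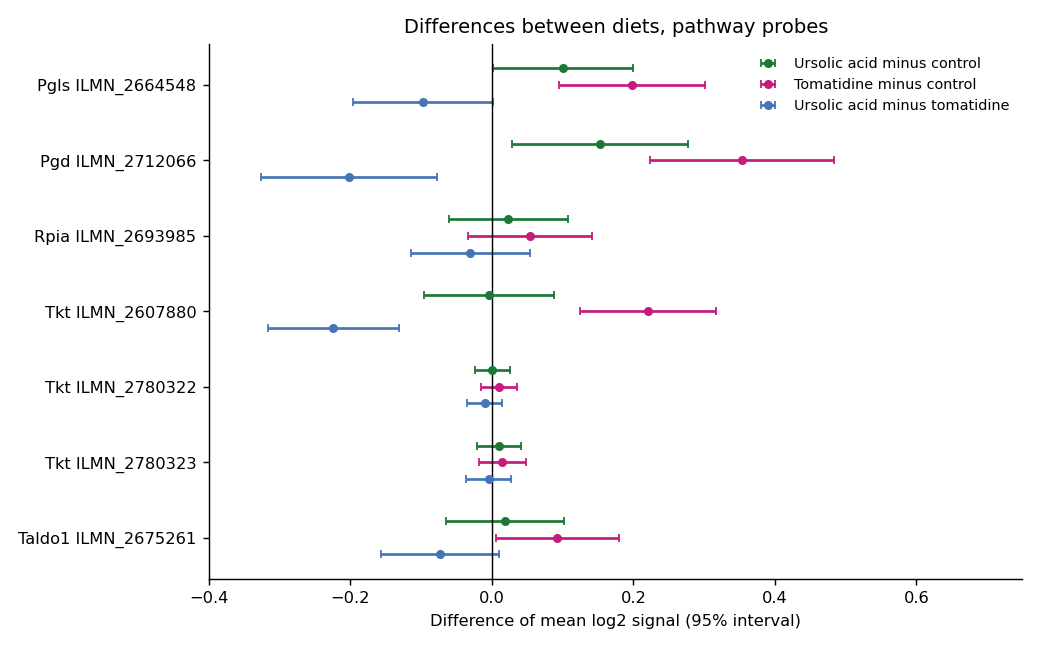
Difference in log2 signal for each probe of the pathway in the 3 comparisons of diets, with the 95% interval from the fit over 16 mice. Pgd lies at 0.35, Tkt ILMN_2607880 at 0.22 and Pgls at 0.20 for tomatidine against control, while Tkt ILMN_2607880 lies at -0.0038 for ursolic acid against control.

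None of the measured relatives of these enzymes, or of the genes that make and use ribose phosphate, passed limma's unadjusted or adjusted threshold in either diet. Of 15 such genes 14 had a probe, 11 of them dim, and 0 passed with ursolic acid or with tomatidine, where 5.3% and 5.37% of all probes passed. At an unadjusted p under 0.05 there were also 0, where 9.02% and 9.12% of all probes were, and 0 by the methods' t-test. The median difference was 0.0036 with ursolic acid and 0.0018 with tomatidine. H6pd, the enzyme of the endoplasmic reticulum that carries out the first oxidative steps there, differed from control by -0.0040 and -0.02, and Prps1, which turns ribose 5-phosphate into the precursor of nucleotides, by -0.02 and -0.01.

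Among genes around the glucose 6-phosphate branch, from hexokinases to later steps such as phosphofructokinase and aldolase, 16 of 20 had a probe and 8 were dim. With ursolic acid 1 was higher and 1 was lower, where 2.58% and 2.72% of all probes were. Pfkl, a subunit of phosphofructokinase with a mean of 8.82, rose by 0.20 (SE 0.07, limma adjusted p = 0.368). Fbp2, the muscle fructose bisphosphatase, fell by 0.58 (SE 0.15, limma adjusted p = 0.249). Pfkm, the muscle subunit of phosphofructokinase with a mean of 14.82, differed by -0.04 with ursolic acid and -0.03 with tomatidine and did not pass. With tomatidine 2 were higher and 0 lower, Pfkl by 0.19 and the dim Hk3, a hexokinase, by 0.04, while Fbp2 differed by -0.29 and did not pass. Of all probes 2.25% were higher with tomatidine. Of probes with a mean of 8.5 or more, 12.2% passed in either direction with ursolic acid and 13% with tomatidine. The methods' t-test in either form passed 0 of these genes with tomatidine, and with mouse number as a block 0 passed with tomatidine and 1, Fbp2, with ursolic acid. The list medians were -0.00041 and 0.0054.

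Among other genes that make or use NADPH, or that work in pathways using it such as fatty acid synthesis, 26 of 35 had a probe and 14 were dim. With ursolic acid 0 passed limma's test, against 5.3% of all probes. At an unadjusted p under 0.05 there was 1, against 9.02% of all probes, and the methods' t-test passed 1. With tomatidine 3 were higher and 0 lower, where 2.25% and 3.12% of all probes were, and the list median was 0.01. Of probes with a mean of 8.5 or more, 13% passed in either direction with tomatidine. With dim probes left out of the fit, 2 of 12 of these genes passed with tomatidine. At an unadjusted p under 0.05 there were 7 of 26 with tomatidine, against 9.12% of all probes. Acaca, which encodes acetyl-CoA carboxylase and feeds fatty acid synthesis, was higher by 0.37 (SE 0.09) from 8.89 to 9.25, and Idh1, the cytosolic isocitrate dehydrogenase that makes NADPH, was higher by 0.20 (SE 0.06) from 8.82 to 9.02. The dim Elovl6, which lengthens fatty acids, was higher by 0.05 (SE 0.02). Me1, the cytosolic malic enzyme and another source of NADPH, differed by -0.06 with ursolic acid and -0.10 with tomatidine and did not pass.

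**Figure D3:**
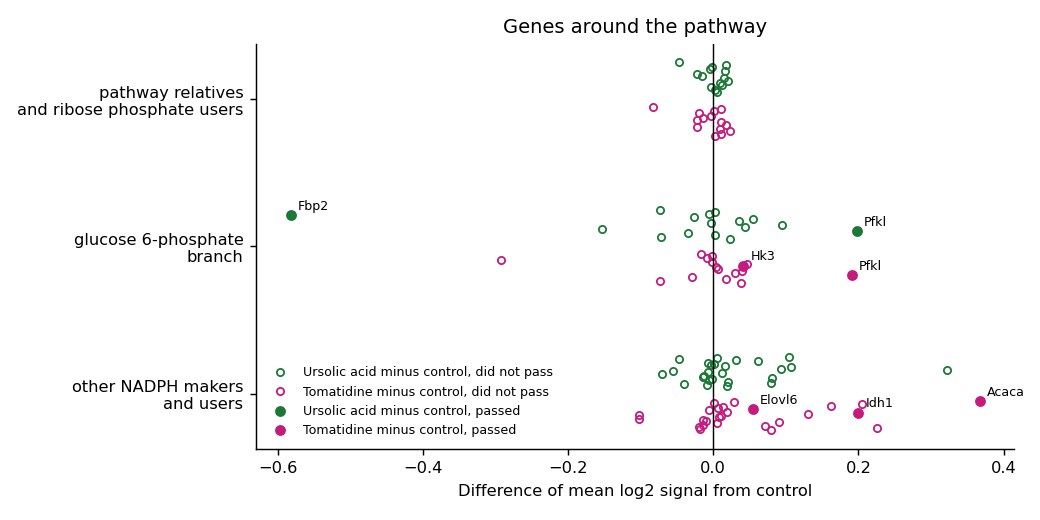
Difference in log2 signal from control for the measured genes of the neighbouring lists, with each diet plotted apart. The lists are 14 relatives and ribose phosphate users, 16 genes around the glucose 6-phosphate branch and 26 genes of NADPH and pathways that use it. Filled points passed the unadjusted threshold and open points did not, with Fbp2 lowest at -0.58 for ursolic acid and Acaca at 0.37 for tomatidine.

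Some markers of adipocytes, which can lie between muscle fibres, were higher with tomatidine, as were some of the other lists. Of 21 adipocyte markers 20 had a probe, 10 of them dim, and 6 were higher and 0 lower with tomatidine, while 2 were higher with ursolic acid. For this and the other marker lists the share of all probes that were higher was 2.25% with tomatidine and 2.58% with ursolic acid, and the share that passed in either direction among probes with a mean of 8.5 or more was 13% and 12.2%. Adipoq, the fat cell hormone adiponectin, differed by 0.48 with tomatidine and Cidec, a lipid droplet protein, by 0.49. Lep (mean 8.71) differed by -0.20 with tomatidine and did not pass, and 17 of the 20 tomatidine differences were above 0. Fabp4 (mean 7.98) and Plin1 (mean 8.02) were dim. Muscle fibres also express some genes of this list, among them Lpl (mean 13.93) and Pnpla2 (mean 12.29), which weigh most in the summed signal. The summed adipocyte signal on the log2 scale ran from 14.75 to 15.14 in control mice, 14.89 to 15.31 with ursolic acid and 14.91 to 15.34 with tomatidine. Of 16 macrophage markers 14 had a probe, 9 of them dim, and 1 was higher with tomatidine, Tyrobp, and 0 with ursolic acid (0 at an unadjusted p under 0.05). Their summed signal ran from 12.21 to 12.69 in control mice, 12.15 to 12.61 with ursolic acid and 12.17 to 12.95 with tomatidine, with the highest list means in tomatidine mice 4 (8.80) and 3 (8.79), and the defining marker Adgre1 was dim at 8.06. The mean of the slow fibre list ran from 10.26 to 11.47 in control mice, 11.18 to 11.67 with ursolic acid and 10.50 to 11.37 with tomatidine. Its median difference was 0.58 with ursolic acid and 0.17 with tomatidine. Of 12 endothelial markers 2 were higher with tomatidine and 4 with ursolic acid, while 0 of the measured neutrophil (11), red blood cell (6) and fibroblast (10) markers passed in either diet. At an unadjusted p under 0.05 these 3 lists held 2, 1 and 0 genes with tomatidine and 0, 1 and 1 with ursolic acid, against 9.12% and 9.02% of all probes. Of the 10 skeletal muscle markers 2 were lower with ursolic acid, Ckm (-0.10) and Myh4 (-0.26), where 2.72% of all probes were lower. Of 9 slow fibre markers 1 was higher with each compound, Atp2a2 with ursolic acid and Tpm3 with tomatidine. Differences above 0 with tomatidine were 11 of 12 endothelial, 12 of 14 macrophage and 8 of 9 slow fibre. They were also 9 of 11 neutrophil, 6 of 6 red blood cell, 7 of 10 fibroblast and 4 of 10 skeletal muscle. Of all probes 48.8% were above 0. With ursolic acid they were 12 of 12 endothelial, 8 of 9 slow fibre, 16 of 20 adipocyte and 4 of 14 macrophage. The rest were 9 of 11 neutrophil, 6 of 6 red blood cell, 2 of 10 fibroblast and 5 of 10 skeletal muscle. The part of these cells in the pathway's diet differences was not tested.

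Apart from diet, no pair of enzymes varied together past the adjusted threshold. Deviations from the diet means over the 16 mice were correlated for 10 pairs of enzymes, with permutation of mice within diets. The highest was Pgd with Taldo1 (Pearson r = 0.61, permutation p = 0.0424, adjusted p = 0.259, Spearman rho = 0.54). Its r was 0.42 without the 2 mice farthest from the median on Pgd alone, and 0 of the 10 pairs passed after adjustment. For the marker lists that follow, the 2 farthest mice were taken on the list mean alone. Against 8 marker lists, 40 relations in all, the largest Pearson r of Pgd was with the macrophage list (Pearson r = 0.71, permutation p = 0.00979, adjusted p = 0.165, Spearman rho = 0.70, permutation p = 0.012, adjusted p = 0.239), with r = 0.61 without the 2 farthest mice. Its relation with the slow fibre list was inverse, and stronger by rho and without the 2 farthest mice (Pearson r = -0.63, permutation p = 0.0123, adjusted p = 0.165, Spearman rho = -0.71, permutation p = 0.00276, adjusted p = 0.110), with r = -0.73 without the 2 farthest mice. Taldo1 was also inverse to the slow fibre list (Pearson r = -0.70, permutation p = 0.0124, adjusted p = 0.165, Spearman rho = -0.64, permutation p = 0.0202, adjusted p = 0.269). That relation was weaker by rho, and r was -0.51 without the 2 farthest mice. The adipocyte list gave r = -0.07 with Pgd. None of the 40 relations passed after adjustment, and the values of a mouse share 1 array.

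**Figure D4:**
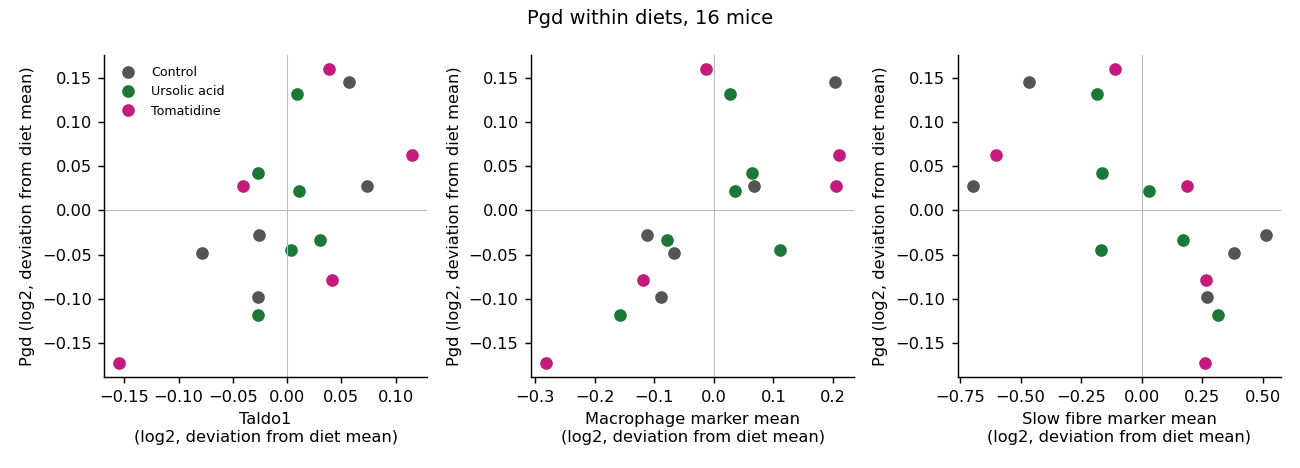
Deviation of each mouse from the mean of its diet, for Pgd against Taldo1, the macrophage list and the slow fibre list, in log2 signal over 16 mice. Pearson r is 0.61 for Pgd with Taldo1 and 0.71 for Pgd with the macrophage list, in which tomatidine mice 3 and 4 and control mouse 5 lie at the right-hand end, and -0.63 for Pgd with the slow fibre list.

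The genes whose deviations from the diet means were most like those of Pgd, Tkt, Pgls and Taldo1 were picked as the 5 highest of 5622 brighter probes, so their correlations are high by choice and carry no test. For Pgd they were C4b (r = 0.905), a complement component, Gadd45a with 2 probes (0.869 and 0.859), a growth arrest gene, Med6 (0.858) and Snx11 (0.856). For Tkt they began with P2ry14 (0.855), a receptor for UDP-sugars, and Ndufa5 (0.783), a subunit of respiratory complex I. After these came Adh1 (0.716), Mgst1 (0.699) and Cox8a (0.679). For Pgls they began with Arf6 (0.840) and Hk2 (0.815), the hexokinase that makes glucose 6-phosphate in muscle. Got1 (0.796), Fbxo4 (0.791) and Slc25a42 (0.786) followed. For Taldo1 they were Pde6d (0.886), Mif (0.877), Vars (0.870), Pkm (0.861), the muscle pyruvate kinase, and Fbxw17 (0.854). No gene was named for more than 1 enzyme.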

How the data were processed

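Quadriceps RNA of 16 mice was read on Illumina BeadChip arrays, and the authors deposited a table of log2 signals, already normalized. How they corrected background and normalized is not given in the sources used here. Values were used as deposited, with no filter on dim probes. Columns were matched to mice by their titles, and the mice are separate animals.

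The model was fitted to every probe in R 4.3.3 using lmFit and eBayes of limma 3.58.1, with 1 mean per diet over the 16 arrays and 13 residual degrees of freedom. Benjamini-Hochberg adjustment ran over all 25697 probes. The thresholds were those of the study's methods, an unadjusted p of 0.025 and an adjusted p of 0.1. The fit was tested on simulated data. The members, gene lists and marker lists were chosen with earlier results of these data known. Within-diet correlations were given permutation p values from 100000 draws, added to a plan that described them without p. Of the pathway, 1 gene is not reported here. A gene with several probes was represented in the lists by its brightest probe.

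Named genes were all probes of the enzymes, up to 4 genes by p past the unadjusted threshold in each list and comparison, the 5 probes most like each of 4 enzymes, and the brightest gene of each marker list. The brightest marker genes were Lpl (adipocyte), Lyz2 (macrophage), Hba-a1 (red blood cell), Egfl7 (endothelial), Dcn (fibroblast), Mb (slow fibre), Mylpf (skeletal muscle) and S100a8 (neutrophil). H6pd, Prps1, Me1, Pfkm and the marker genes given by name otherwise were chosen after their values were seen. Alternatives were centring, quantile normalization, fitting only the diets compared, an intensity trend with robust estimates, array weights, the methods' t-test in its equal and unequal variance forms, leaving out dim probes, mouse number as a block, and leaving out mice.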

Additional observations from a re-analysis of the deposited data

Results flagged for a closer look

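In 21 sets of values, each 1 probe in 1 diet, the mouse farthest from the others was compared with the range of its set, a rule that picks about 1 set in 20 by chance, and 2 stood apart. Tomatidine mouse 1 had a Tkt ILMN_2607880 signal of 8.84, below the other 4 tomatidine mice at 8.95 to 8.99. Ursolic acid mouse 1 had a signal of 8.01 for the dim Tkt probe ILMN_2780323, next to the lowest signals of the arrays.

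Set directly against each other, the compounds stood apart for 2 probes, picked by limma's unadjusted threshold for ursolic acid minus tomatidine. The tomatidine mice also served to choose the pathway, and Pgd was named from lists of probes that differed, so the values are descriptions and not tests. The difference was -0.20 for Pgd and -0.22 for Tkt ILMN_2607880, and 0 of the 2 met the threshold after adjustment over all probes.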

How the results depend on the processing

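Over 26 alternatives, counts of passing probes and genes were within 1.5 times the reported value in 191 cases and moved further in 43, and of 540 differences of single probes 507 kept direction and side of the unadjusted threshold. Of the others 15 changed sign and 18 changed side, 9 coming to pass (Pgls with ursolic acid 2, Rpia with tomatidine 1, Taldo1 with tomatidine 3, and Pgls 2 and Taldo1 1 between the compounds) and 9 no longer passing (Pgd, 8 with ursolic acid and 1 between the compounds). The 3 tomatidine differences of Pgd, Tkt ILMN_2607880 and Pgls met the unadjusted threshold under every alternative, with ranges over left-out mice of 0.31 to 0.40, 0.20 to 0.26 and 0.16 to 0.22, but the choice of the pathway used this contrast.

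For ursolic acid, 1 enzyme probe (Pgd) met the unadjusted threshold, and 0 did with tomatidine mice 3 and 4 left out, an alternative chosen after earlier results were seen. Over left-out mice 0 to 2 did. The tomatidine count ran from 3 to 4 over left-out mice. The count between compounds ran from 2 to 3, and was 1 (Tkt) rather than 2 without tomatidine mice 3 and 4. Pgls passed with ursolic acid without control mouse 5 (0.13) or ursolic acid mouse 1 (0.12). Ursolic acid differences near 0 changed sign. Tkt ILMN_2607880 was at 0.0018 with array weights and ran from -0.029 to 0.032 over left-out mice, ILMN_2780322 from -0.0064 to 0.0081, ILMN_2780323 from -0.00067 to 0.021, Rpia from -0.0012 to 0.060 and Taldo1 from -0.00054 to 0.037.

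Mouse numbers are shared between diets. The correlation of same-numbered mice was over 0.1 for 5 of 15 pairs (median -0.11), and the numbers were not taken as pairs. Between tomatidine and ursolic acid mice 1 to 5 it was 0.37, -0.13, 0.12, 0.24 and 0.22. Differently numbered mice were not set beside these, so the values do not settle whether the numbers mark pairs. With mouse number as a replicate block, the enzyme counts stayed at 1, 3 and 2. The relatives then had 1 gene passing with tomatidine rather than 0 (Dcxr), the glucose 6-phosphate genes 1 with ursolic acid and 0 with tomatidine rather than 2 each, and the NADPH genes 5 with tomatidine rather than 3. The glucose 6-phosphate count with tomatidine was also 1 when only the diets compared were fitted, with dim probes left out or without tomatidine mice 3 and 4, and 0 with the methods' t-test in either form. The NADPH count with ursolic acid was 1 rather than 0 with only the diets compared, with the methods' t-test in either form and without tomatidine mice 3 and 4 (Aldh1l2 each time). Over left-out mice the relatives had 0 to 1 with tomatidine, the glucose 6-phosphate genes 1 to 3 with ursolic acid and 0 to 3 with tomatidine, and the NADPH genes 0 to 1 and 3 to 5. The cause of these moves was not tested.

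Depth is not defined for arrays, and 5 or 6 mice a diet limit the precision. Of the enzyme probes 2, both of Tkt, were dim, and Rpe was not analysed here.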
